A study of Mus musculus with 6 samples.

Results

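The carboxylesterase 1 (Ces1) cluster of the mouse is a row of 8 neighbouring genes on chromosome 8, from Ces1a to Ces1h. Its members were taken as the rows of the deposited count and FPKM tables that carry these 8 names, of 55039 gene rows in all. All 8 names were found, and all 8 genes had at least 1 read in at least 1 library. The RNA came from eWAT, the epididymal depot of white fat, of male C57BL/6 mice aged 6 to 7 weeks when they were assigned to groups. Mice of the CAC group, a model of cancer-associated cachexia, were injected under the skin with Lewis lung carcinoma (LLC) cells in PBS, and mice of the control group (CONT) with PBS alone. All were killed 28 days later. Poly(A) RNA of 3 mice per group was sequenced, which gave 6 libraries of 15713794 to 25926425 reads assigned to genes. The model rests on 1 tumour cell line given to 1 sex of 1 mouse strain, and the whole fat pad was sequenced.

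Carboxylesterases of this family are serine hydrolases of the endoplasmic reticulum that cleave ester bonds in lipids and in many drugs. In adipose tissue Ces1d, also called triacylglycerol hydrolase or Ces3, sits in the endoplasmic reticulum and at lipid droplets and takes part in basal lipolysis, beside the better known pathway of adipose triglyceride lipase (Pnpla2) and hormone-sensitive lipase (Lipe). Ces1f hydrolyses triglycerides too. Ces1c is secreted by the liver into the plasma, Ces1e (egasyn) holds beta-glucuronidase in the endoplasmic reticulum, and Ces1g is best known from liver and intestine.

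On GRCm38 the 8 genes follow each other on the minus strand of chromosome 8 over 359.5 kb, from position 93020214 (the end of Ces1a) to 93379725 (the start of Ces1h). The coordinates in the deposited table equal those of the GENCODE M21 annotation for all 8 genes. Ces1d (ENSMUSG00000056973) lies at chr8:93166068-93197838 and Ces1f (ENSMUSG00000031725) at chr8:93256236-93279747. Each gene spans 23.3 to 34.9 kb, and the transcript used for each has 14 exons, except Ces1c with 13. Their coding sequences are 1662 to 1701 bases long and 73.0% to 90.9% identical between members, with a median of 77.8% over the 28 pairs. Ces1b and Ces1c are the closest pair at 90.9%, while Ces1d and Ces1f share 77.9%.

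A short stretch of each coding sequence holds the codon of the catalytic serine. The 30 coding bases around it are given for each member, found in Ces1d by translating its coding sequence and in the others by alignment to Ces1d, and capitals mark bases that differ from Ces1d. Ces1d, the most abundant member in these libraries, stands first.
Ces1d: atctttggagagtcagcaggaggtttcagt
Ces1f: atctttggagagtcagcaggaggttAcagt
Ces1a: CtctttggCgagtcagcaggaggtGAAagt
Ces1b: GtctttggGTCAtcagcaggaggtGtcagt
Ces1c: atctttggagagtcaTcaggGggtAtcagt
Ces1e: atctttggagagtcagcaggaggtGAAagt
Ces1g: atcttCggCgagtcagcaggaggtGAAagt
Ces1h: atctttggaCagtcagcaggaggtGAAagt
Ces1f differs from Ces1d at 1 of these 30 bases and Ces1b at 6, the most of any member. Over the whole coding sequence Ces1f shares 77.9% with Ces1d and Ces1b 78.4%, so the stretch does not measure how close the copies are.

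Reads of close copies can be assigned to the wrong gene, so the share of each transcript that is found letter for letter in transcripts of another gene was computed over 141767 reference transcripts. Of the 50-base windows of Ces1d, 1.28% occur in another gene, and of those of Ces1f 1.60%. At 100 bases neither has a shared window. Ces1b and Ces1c share more, 11.6% and 17.0% of 50-base windows and 1.29% and 1.39% of 100-base windows. Ces1a shares 4.87% of 50-base and 2.34% of 100-base windows, the latter with Gm45463 on the plus strand, and Ces1h 4.45% and 0.34%, while Ces1e and Ces1g share 3.21% and 1.67% at 50 bases and none at 100. The values of Ces1a, Ces1b, Ces1c and Ces1h are therefore less certain than those of Ces1d and Ces1f. How the authors counted reads that match several genes, and whether strand was used, is not given in the sources used here.

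The members fell into 2 abundant genes and 6 with almost no reads. Over the 6 libraries Ces1d held 182972 reads and Ces1f 28103, whereas none of the other 6 genes reached 100. Levels of different genes are compared here as FPKM, which is scaled to gene length and library size, as the authors deposited them. In CONT the order of the mean FPKM was Ces1d, Ces1f and Ces1b, and in CAC it was Ces1d, Ces1f and Ces1e. The FPKM of Ces1d was above that of Ces1f in every library, and that of Ces1f above each of the other 6. Among those 6, no FPKM passed 0.636 in any library and the ranges overlapped, so their order is not resolved.

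**Figure D1:**
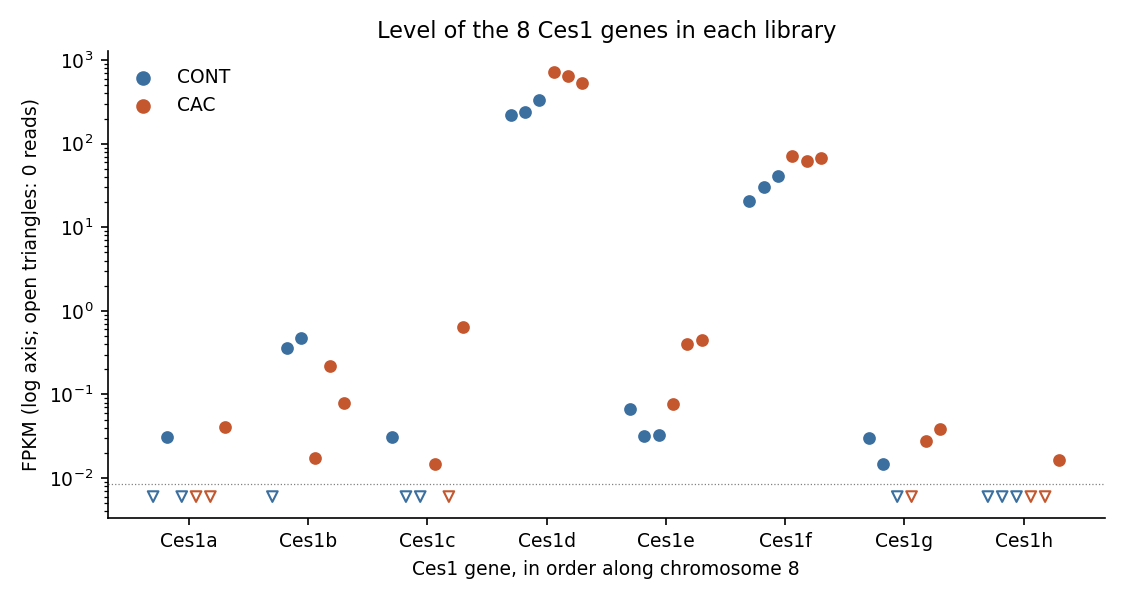
FPKM of the 8 Ces1 genes on a log axis, 1 point per library (CONT in blue, CAC in orange, replicates 1 to 3 from left to right), with open triangles below the dotted line for libraries with 0 reads. Ces1d and Ces1f lie far above the others, and for both all 3 CAC libraries lie above all 3 CONT libraries.

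Ces1d was counted at 7230, 16203 and 21505 reads in CONT and at 50580, 46319 and 41135 in CAC. Scaled to CPM on the TMM-adjusted library size, its level was 645, 710 and 972 in CONT and 2077, 1870 and 1553 in CAC. The lowest CAC library lay above the highest CONT library. The FPKM was 221, 239 and 329 in CONT and 722, 640 and 534 in CAC, which gives means of 263 ± 58.2 and 632 ± 94.3 (SD, n = 3 each). By FPKM, Ces1d ranked 182, 88 and 81 in CONT and 32, 32 and 50 in CAC among 22046 protein-coding genes. Ces1d reads made up 0.0460% (95% Wilson interval 0.0450 to 0.0471) to 0.104% of all gene reads in CONT and 0.159% to 0.203% in CAC.

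Ces1f had 928, 2883 and 3761 reads in CONT and 7002, 6262 and 7267 in CAC. Its level was 82.7, 126 and 170.0 CPM in CONT and 288, 253 and 274 CPM in CAC. Here too the groups did not overlap, and the CONT libraries were spread more widely than the CAC libraries, at 126 ± 43.6 against 272 ± 17.6 CPM (SD, n = 3 each). The FPKM was 20.4, 30.7 and 41.6 in CONT and 72.1, 62.4 and 68.0 in CAC. It ranked 812 to 2027 among protein-coding genes in CONT and 485 to 516 in CAC.

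**Figure D2:**
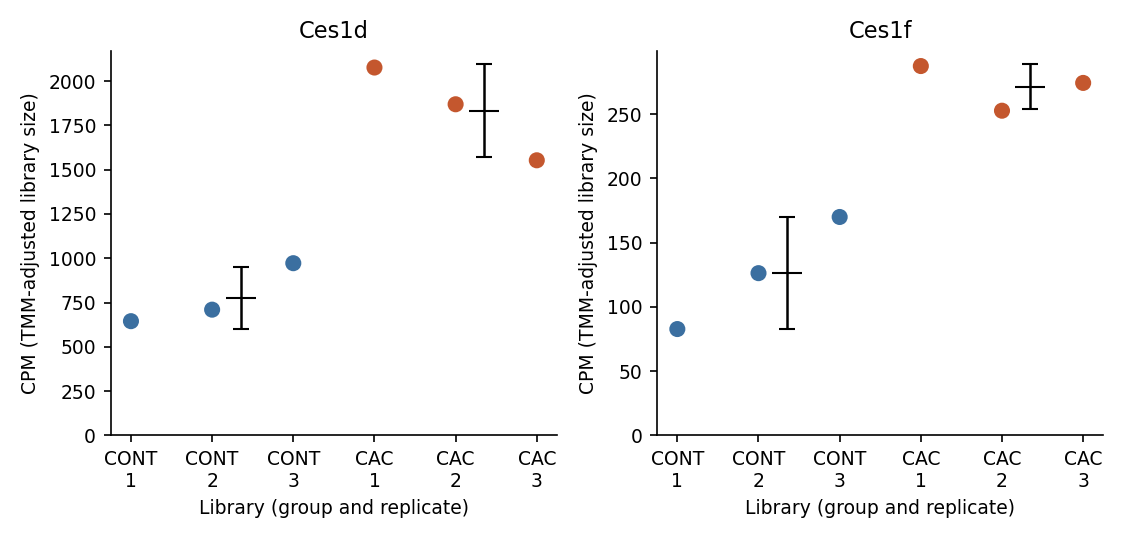
CPM of Ces1d (left) and Ces1f (right) in each of the 6 libraries, CONT in blue and CAC in orange, with the group mean and SD as black bars. The CONT libraries lie between 645 and 972 CPM for Ces1d and between 82.7 and 170.0 CPM for Ces1f, and the CAC libraries begin at 1553 and 253 CPM.

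The comparison of CAC with CONT asks which genes of the fat pad differ in mice with a tumour. In edgeR's quasi-likelihood fit over 17296 genes, the log2 fold change was 1.24 ± 0.30 for Ces1d (SE, 2.36-fold, unadjusted p = 0.00483, Benjamini-Hochberg adjusted p = 0.239). For Ces1f the same fit gave 1.10 ± 0.29 (2.15-fold, unadjusted p = 0.00803, adjusted p = 0.266). Neither gene passed the adjusted threshold of 0.05, nor did any other gene (0 of 17296, 0%), and the smallest adjusted p of all genes was 0.127. At an unadjusted p under 0.05 stood 2 of the 3 Ces1 genes that passed the filter on low counts, both higher in CAC, against 6.31% of all tested genes in that direction, 6.95% in the other and 13.3% in either. Groups did not overlap, with CAC above, for the same 2 genes and for 11.8% of all tested genes (22.5% in either direction). The smallest p that an exact permutation test of 3 against 3 libraries allows is 0.1, two-sided, and Ces1d and Ces1f both gave it.

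DESeq2, the tool of the study, called both genes on the same counts. It gave 1.27 ± 0.26 for Ces1d (adjusted p = 0.000126) and 1.13 ± 0.31 for Ces1f (adjusted p = 0.0115), and it called 917 of 18444 genes (4.97%), 2.86% as higher in CAC. The fold changes of the 2 tools differed by less than their standard errors. The cluster was chosen with results of these libraries known, so these values are no independent evidence of the direction. For Ces1f the DESeq2 call was lost without CONT replicate 2 (1.12, adjusted p = 0.0827), CAC replicate 2 (1.18, adjusted p = 0.0590) or CAC replicate 3 (1.13, adjusted p = 0.0738), at fold changes close to that of the full fit, while Ces1d kept it whichever library was left out, with adjusted p between 1.95e-08 and 0.00626.

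**Figure D3:**
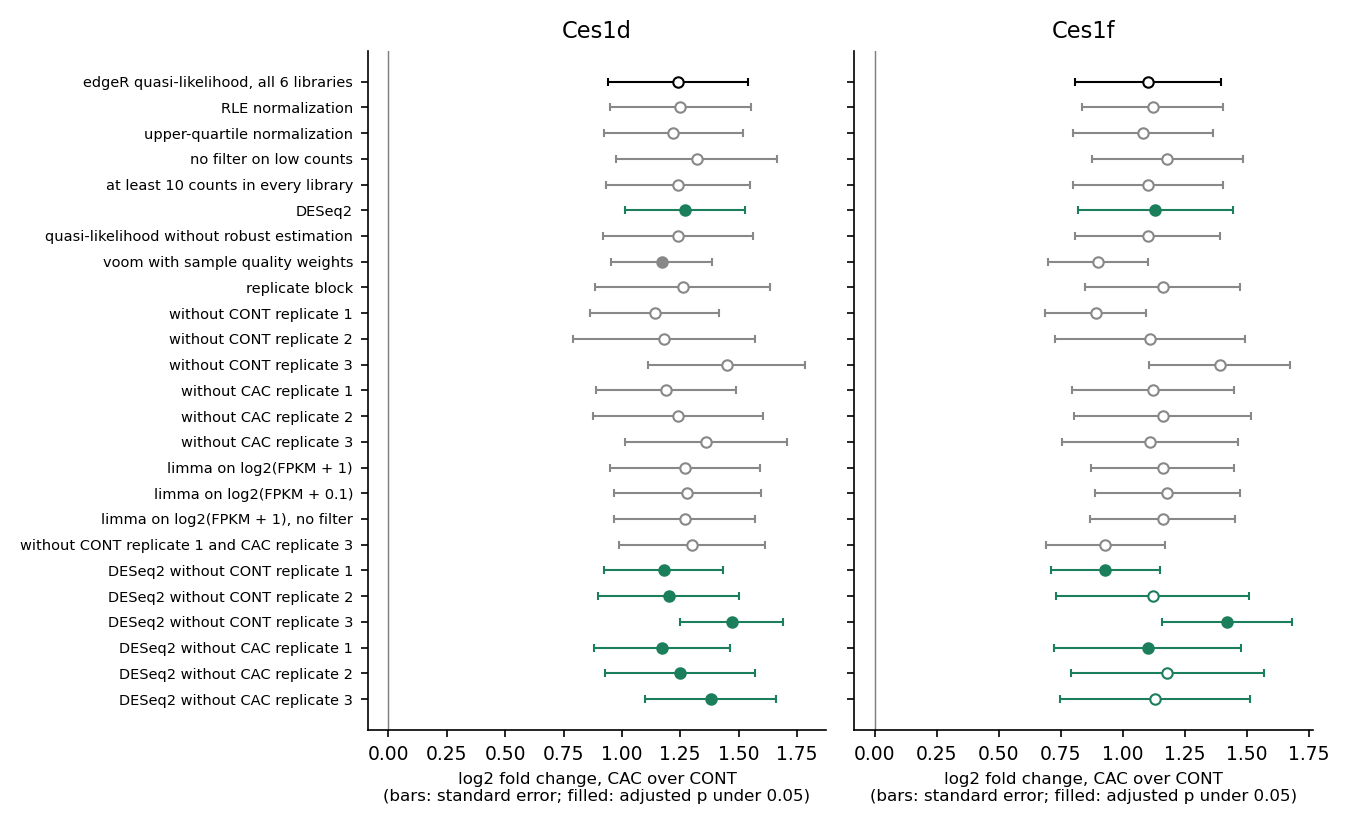
Log2 fold change of Ces1d (left) and Ces1f (right), CAC over CONT, with its standard error, under each setting, and filled points where the adjusted p was under 0.05. The fold changes lie between 1.14 and 1.47 for Ces1d and between 0.89 and 1.42 for Ces1f, and edgeR's test gave no filled point in any setting.

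CONT replicate 1 stands apart from the other libraries: genes of the mitochondrial genome held 30.2% of its reads, against 3.89% to 5.04% elsewhere, and it had the smallest total. It was also the lowest library for Ces1d and for Ces1f. Without it the log2 fold change was 1.14 for Ces1d and 0.89 for Ces1f. In bulk tissue, fewer cells of a type and less RNA per cell cannot be told apart. Of 14 adipocyte markers, all tested, 1 had an unadjusted p under 0.05 (Acvr1c, higher in CAC, log2 fold change 0.64, adjusted p = 0.320). This count was 0 with CONT replicate 2 or CAC replicate 2 left out, 2 with CONT replicate 1 and 3 with CAC replicate 1 left out. Their summed level was 35128 to 73675 CPM in CONT and 45443 to 68664 CPM in CAC. The sum is led by a few very abundant genes such as Car3, Cfd and Fabp4, and the median log2 fold change of the list was -0.19. Lep, the leptin gene, had 99 and 11 reads in CAC replicates 2 and 3 against 7820 to 12457 in the other libraries, and Adrb3 3524 and 1195 against 7763 to 15035. All 14 had reads in every library, as the label of adipose tissue asks.

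Within the cluster the balance of Ces1d and Ces1f differed less between the groups than between libraries of a group. The ratio of their FPKM was 10.8, 7.79 and 7.93 in CONT and 10.02, 10.3 and 7.85 in CAC, or 8.84 ± 1.70 against 9.37 ± 1.33 (SD, n = 3 each, exact two-sided permutation p = 0.9). Ces1d took 84.8% to 88.6% of the cluster's reads in CONT and 84.8% to 88.0% in CAC, and Ces1f nearly all of the rest. This ratio is formed within a library and needs no scaling between libraries. The highest ratio was in CONT replicate 1 and the next highest in CAC replicate 2, so the groups were mixed along the whole range.

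Ces1e had 2 reads in each CONT library and 5, 27 and 32 in those of CAC. Each CAC library was above each CONT library, at 0.205, 1.09 and 1.21 CPM against 0.0876 to 0.178 CPM, but CAC replicate 1 was close to CONT replicate 1. Over each group, 64 reads stood against 6, a rate ratio of 7.92 (exact 95% interval 3.45 to 22.4, counting error only). Ces1e did not pass the filter on low counts. Fitted without the filter, edgeR gave a log2 fold change of 2.88 ± 1.02 (unadjusted p = 0.0205, adjusted p = 0.560) and DESeq2 2.91 ± 1.19 (adjusted p = 0.147). DESeq2 called Ces1e without CAC replicate 1, the lowest CAC library (adjusted p = 0.0224), and gave it no adjusted p without CAC replicate 2 or without CAC replicate 3. It did not call Ces1e without CONT replicate 1, 2 or 3 (adjusted p = 0.0854, 0.310 and 0.275). In edgeR the fits without CONT replicate 1, 2 or 3 or CAC replicate 1 gave adjusted p of 0.276 to 0.553.

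Ces1c had 48 reads in CAC replicate 3, 1 in CONT replicate 1, 1 in CAC replicate 1 and 0 in the other 3 libraries. A single library thus held 48 of its 50 reads, and the group difference (4.59 ± 2.24 on the log2 scale without the filter, adjusted p = 0.676) rests on it. The same library held 79 reads of Ces3a and all 12 reads of Ces3b, carboxylesterases of the liver, against 0 to 4 reads of Ces3a in each of the others. Of 12 hepatocyte markers, 10 had their highest CPM in this library, with 137 reads of the fibrinogen gene Fgb against 0 to 3 elsewhere, 197 of the transthyretin gene Ttr against 2 to 12, and 1478 of the albumin gene Alb against 30 to 270. The other 2 did not: Serpina1a had 69 reads there against 65, 170 and 88 in CONT, and Hnf4a had 17 against 2, 741 and 421. Serpina1a, lower in CAC, was the only marker of the 5 tested with an unadjusted p under 0.05. With 1 library left out at a time this count was 0 to 1. Over all 12 the summed level was 108 CPM in CAC replicate 3, 7.63 and 13.0 CPM in the other CAC libraries and 35.0 to 53.6 CPM in CONT, with Alb alone at 55.8 CPM in CAC replicate 3, and no marker was at 0 in that library. The part of hepatocyte RNA in the value of Ces1c was not tested. With this library left out, the log2 fold changes of Ces1d and Ces1f were 1.36 and 1.11. CAC replicate 3 was the lowest CAC library for Ces1d.

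Ces1b had 0, 20 and 26 reads in CONT and 1, 13 and 5 in CAC. The groups overlapped, since CONT replicate 1 had none. Ces1b passed the filter on low counts, and its log2 fold change was -1.48 ± 1.22 (unadjusted p = 0.269, adjusted p = 0.618). The value moved to -0.82 without CONT replicate 3, -0.88 without CAC replicate 1 and -2.52 without CAC replicate 2. Over the 6 libraries its log2 CPM followed that of the epithelial keratin Krt8 (Pearson r = 0.979, Spearman rho = 0.943) and of the hepatic and epithelial transcription factor Hnf4a (r = 0.933, rho = 0.886), and less closely that of the partner keratin Krt18 (r = 0.833, rho = 0.771). These are descriptions over 6 libraries, in each of which the genes compared share depth and RNA quality, and these genes were picked after their values had been seen. Krt8 had 86, 1854 and 1961 reads in CONT and 156, 1211 and 718 in CAC, and Hnf4a 2, 741 and 421 in CONT and 27, 115 and 17 in CAC. CONT replicate 1 and CAC replicate 1 were thus the lowest for Ces1b and for Krt8. Not all genes of the mesothelium list ran this way, since Msln (24.9 CPM) and Upk3b (89.7 CPM) were highest in CONT replicate 1, where Ces1b had no reads. Of the 9 mesothelium markers, among them Krt8, 1 had an unadjusted p under 0.05 (Lrrn4, higher in CAC), a count that was 0 without any 1 of the CONT libraries or CAC replicate 3 and 3 without CAC replicate 2. Their summed level was 222 to 277 CPM in CONT and 97.4 to 346 CPM in CAC. The part of epithelial RNA in the value of Ces1b was not tested.

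**Figure D4:**
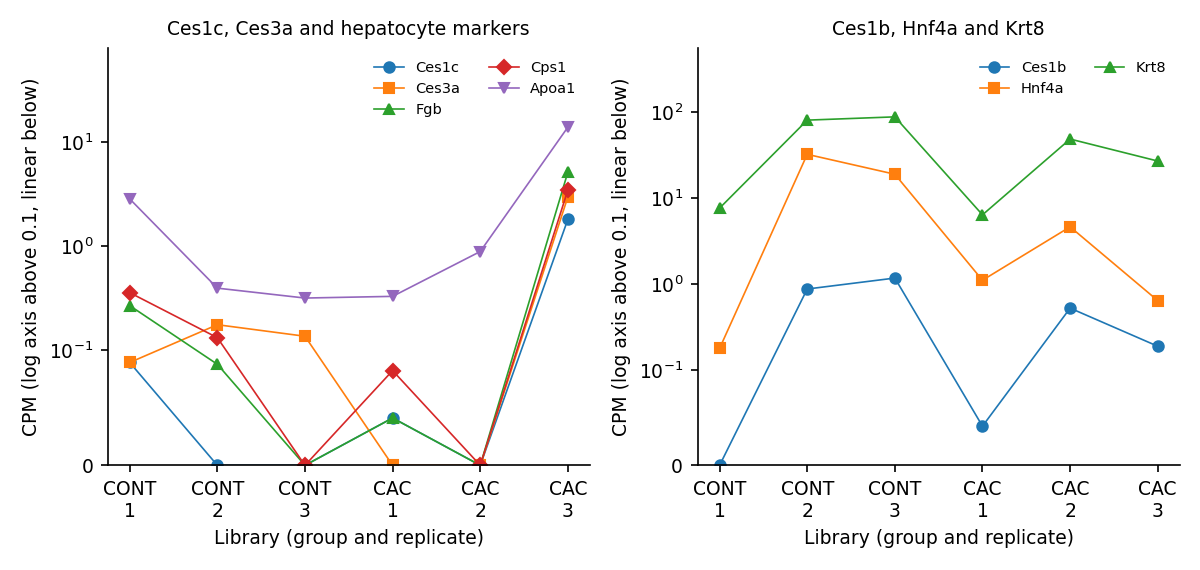
CPM by library of Ces1c with Ces3a and hepatocyte genes (left) and of Ces1b with Hnf4a and Krt8 (right), on an axis that is logarithmic above 0.1 CPM and linear below, each gene a line with its own marker. Ces1c and the genes beside it are highest in CAC replicate 3, while Ces1b is highest in CONT replicates 2 and 3.

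Ces1a, Ces1g and Ces1h were close to absent at this depth. Ces1a had 2 reads in CONT replicate 2 and 3 in CAC replicate 3. Ces1g had 1, 1 and 0 reads in CONT and 0, 2 and 3 in CAC. Ces1h had 1 read in CAC replicate 3 and none elsewhere. A count of 0 allows up to 0.113 to 0.268 CPM, depending on the library, and no difference between groups was detectable for these 3 genes.

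The start regions of Ces1b and Ces1c are shown because these closest copies had most of their reads in different libraries, although CAC replicates 1 and 3 held reads of both. RefSeq (GRCm38.p6) lists promoter windows for 6 of the 8 members, 7 windows in all, and none for Ces1d and Ces1f. Ces1b has windows at starts 93079940 and 93080017, the latter its start in the deposited table, and only the former is printed. The 250 bases upstream of that start and of the Ces1c start are printed on the minus strand, 5′ to 3′. Capitals mark a C/EBP site (TTGCNNAA) near the 5′ end and an inverted CCAAT box near the 3′ end.
Ces1b (chr8:93079941-93080190): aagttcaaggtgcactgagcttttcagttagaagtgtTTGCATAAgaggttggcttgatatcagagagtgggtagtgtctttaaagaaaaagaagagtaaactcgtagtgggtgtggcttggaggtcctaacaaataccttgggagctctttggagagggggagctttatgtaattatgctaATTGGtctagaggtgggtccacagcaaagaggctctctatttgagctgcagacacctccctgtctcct
Ces1c (chr8:93131284-93131533): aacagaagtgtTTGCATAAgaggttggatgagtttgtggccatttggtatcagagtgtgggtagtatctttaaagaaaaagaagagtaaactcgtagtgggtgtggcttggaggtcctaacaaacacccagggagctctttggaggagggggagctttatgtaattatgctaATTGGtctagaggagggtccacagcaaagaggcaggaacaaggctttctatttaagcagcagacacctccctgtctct
The 2 printed windows are identical at 208 of 219 aligned bases. Both hold the C/EBP letters, which 9.6% of 32851 RefSeq promoter windows hold on either strand, and both hold CCAAT (33.8% of windows), as do Ces1a and Ces1g. The other window of Ces1b, upstream of 93080017, holds the C/EBP letters but no CCAAT. It is identical to the Ces1c window at 137 of 144 aligned bases. A TATA box (TATAAA, 12.4% of windows) was found in Ces1g and Ces1h only. The GC box GGGCGG, the nuclear receptor half-site AGGTCA, the glucocorticoid receptor half-site AGAACA and the E-box CACGTG were in none of the 7 windows. A match of letters is a description and not a site.

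The other neutral lipid hydrolases and their regulators were compared with Ces1d and Ces1f as a list of 14 genes, all tested. At an unadjusted p under 0.05, 3 were higher and 1 was lower in CAC, against 6.31% and 6.95% of all tested genes. None of the 14 passed the adjusted threshold. Pnpla2, which cleaves the first fatty acid from triglycerides, had a log2 fold change of 1.36 ± 0.32 (adjusted p = 0.238), its co-activator Abhd5 1.29 ± 0.23 (adjusted p = 0.215), and the droplet protein Plin5 1.68 ± 0.48 (adjusted p = 0.275). Pnpla3 was lower, at -3.02 (adjusted p = 0.305). DESeq2 called all 4. The diglyceride lipase Lipe had -0.27 ± 0.37 and the monoglyceride lipase Mgll -0.47 ± 0.42, both with overlapping groups. The median log2 fold change of the list was 0.08, against -0.06 for all tested genes.

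**Figure D5:**
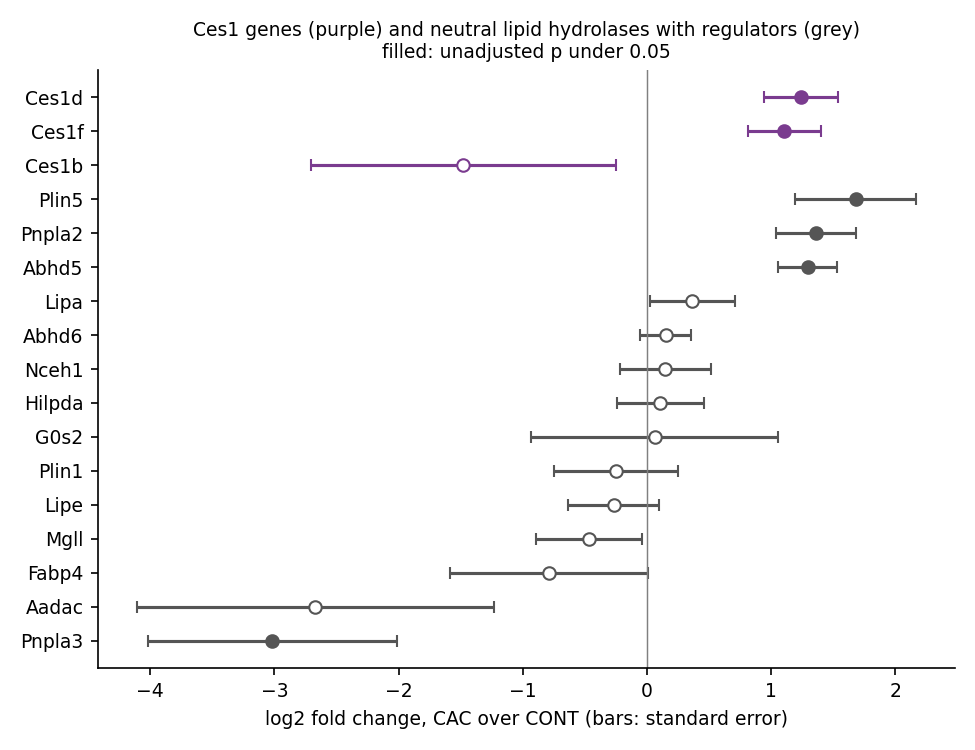
Log2 fold change, CAC over CONT, with its standard error for the 3 Ces1 genes that passed the filter (purple) and for the 14 neutral lipid hydrolases and regulators (grey), filled where the unadjusted p was under 0.05. Ces1d at 1.24 and Ces1f at 1.10 lie beside Pnpla2 at 1.36 and Abhd5 at 1.29, while Lipe and Mgll lie below 0 and Pnpla3 at -3.02.

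Enzymes that work, like the carboxylesterases, in the endoplasmic reticulum and in detoxification were compared as a further list. Of 12 tested, 4 were higher in CAC at an unadjusted p under 0.05 and 0 lower, against 6.31% and 6.95% of all tested genes. The median log2 fold change of the list was 0.78. The highest was Cyp2e1, a cytochrome P450 that the study had picked on these libraries, at 1.74 ± 0.37 (adjusted p = 0.228). The flavin monooxygenase Fmo2 stood at 1.39 ± 0.24 (adjusted p = 0.215), glutathione transferase Mgst1 at 1.08 ± 0.37 (adjusted p = 0.319) and Fmo1 at 0.98 ± 0.34 (adjusted p = 0.327). None passed the adjusted threshold, and the count of 4 was 2 without CONT replicate 2, CAC replicate 2 or CAC replicate 3, 3 without CONT replicate 3, and 6 without CONT replicate 1 or CAC replicate 1. Groups did not overlap for 5 of the 12 with CAC above, and for 1, Cyb5r3 (-0.60 ± 0.29), with CAC below. Over all tested genes these shares were 11.8% and 10.7%. DESeq2 called 2 of the 12, Cyp2e1 and Fmo2.

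Among the other 12 carboxylesterase genes only Ces2g passed the filter, and its groups overlapped (70, 223 and 223 reads in CONT, 150, 204 and 86 in CAC, log2 fold change -0.57 ± 0.43, adjusted p = 0.588). Ces5a, which lies within 500 kb of the cluster and is known from the epididymis, had 232 reads in CONT replicate 1 and 0 to 16 in each other library. Epididymis markers were uneven in CONT and nearly absent in CAC: the summed level of 10 such genes was 208, 3.99 and 13309 CPM in CONT, led by 118445 reads of Gpx5 in CONT replicate 3, against 0.161 to 1.32 CPM in CAC. Of the 10, only Adam7 passed the filter, with 702, 55 and 34990 reads in CONT and 0, 0 and 2 in CAC. Its log2 fold change was -14.1 ± 3.16 (edgeR unadjusted p = 0.00345, adjusted p = 0.228). CONT replicate 2 had 0 reads of Gpx5, Lcn5, Lcn8 and Lcn9, while Lcn5 was highest in CONT replicate 1 with 786 reads. DESeq2 called 4 of the 10 markers, all lower in CAC, namely Adam7, Defb42, Crisp1 and Lcn5 (adjusted p = 1.32e-05 to 0.0496). The part of epididymal RNA in the group difference was not tested. Without CONT replicate 3, the library with the highest sum, the log2 fold change was 1.45 for Ces1d and 1.39 for Ces1f.

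Nuclear receptors and other factors known to act on carboxylesterase genes gave 1 gene higher and 0 lower at an unadjusted p under 0.05, of 11 tested. That gene was the general factor Sp1 (0.73 ± 0.26, adjusted p = 0.330). Ppara, the receptor of the fasting response, had 1.90 ± 0.80 (adjusted p = 0.379), with 16, 223 and 198 reads in CONT and 210, 951 and 763 in CAC, so that CAC replicate 1 lay within the CONT range of reads. Its partner Rxra had 0.60 ± 0.26 (adjusted p = 0.383). Nr1i2 had at most 21 reads in a library and Nr1i3 none. The count of this list was 0 with CONT replicate 2, CAC replicate 2 or CAC replicate 3 left out, 3 with CAC replicate 1 and 5 with CONT replicate 1 left out. Of 8 tested genes of lipoprotein assembly and lipid droplet transfer, 0 had an unadjusted p under 0.05, 2 did without CONT replicate 1 or CAC replicate 1, and 1 without CONT replicate 3. Cidea, a lipid droplet protein, had the smallest p of the list, with 2.10 ± 0.98 (adjusted p = 0.414) and overlapping groups. Mttp, which loads lipid on lipoproteins, stood at 0.82 ± 0.46. Apoe stood at 0.67 ± 0.33 with all CAC libraries above all CONT libraries, as for 11.8% of all tested genes, and DESeq2 called it (adjusted p = 0.0281).

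The remaining marker lists give the makeup of the tissue beside these values. Of 10 fibroblast and progenitor markers, 4 were lower in CAC at an unadjusted p under 0.05 and 0 higher, against 6.95% and 6.31% of all tested genes. They were the collagen genes Col3a1 (821 CPM in CONT and 206 in CAC on average) and Col1a1 (-2.13 ± 0.70 on the log2 scale), Pi16 (-0.86 ± 0.22) and Lum (-1.04 ± 0.39). DESeq2 called 3 of them, Col3a1 (adjusted p = 0.000575), Pi16 (adjusted p = 0.0302) and Col1a1 (adjusted p = 0.0400). The matrix gene Dcn stood at 0.60 ± 0.27 with all CAC libraries above all CONT libraries (as for 11.8% of all tested genes), and Pdgfra (-0.07) and Pdgfrb (0.01) were near 0. Of 12 macrophage markers 1 was lower (C1qa, -1.01 ± 0.39), and 0 of 8 endothelium markers passed. The summed macrophage level was 866 to 2391 CPM in CONT and 1008 to 1862 CPM in CAC. The summed endothelium level was 1359 to 2513 CPM in CONT and 1931 to 2225 CPM in CAC. The macrophage count was 6 without CONT replicate 1, 2 without CAC replicate 1 and 0 without any 1 of the others. The endothelium count was 4 without CONT replicate 1, and 1 without CONT replicate 2 or CAC replicate 1. The part of tissue makeup in the difference of Ces1d and Ces1f was not tested.

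The genes around the cluster were read for position. Within 500 kb on either side of the 8 members lie 24 other genes, of which 6 passed the filter and 6 had 0 reads. None of those tested had an unadjusted p under 0.05. The matrix protease gene Mmp2 stood at -0.07 ± 0.47, Lpcat2 at -0.27 ± 0.45, Slc6a2 at -0.18 ± 1.34 and Gm45727 at -0.36 ± 0.61. Gnao1, a G protein subunit gene, had all CAC libraries below all CONT libraries (-0.56 ± 0.24, adjusted p = 0.383), as did 10.7% of all tested genes. Gm45909 lies on the same strand within an intron of Ces1d, with no exonic base in common. It had 0, 110 and 86 reads in CONT and 236, 75 and 6 in CAC (0.56 ± 1.56, adjusted p = 0.907), an order of libraries unlike that of Ces1d.

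The genes whose log2 CPM was most like that of each Ces1 gene over the 6 libraries were sought among all tested genes. For Ces1d they included Mrps34 (Pearson r = 0.998) and Creb1 (r = 0.994). For Ces1f they were Slc1a3 (r = 0.997), Klf13 (r = 0.996) and Med13l (r = 0.994), and for Ces1b Igkv12-89 (r = 0.996), Pax2 (r = 0.994) and Abr (r = 0.993). Ces1d and Ces1f had r = 0.953 with each other. With 6 points in 2 groups, such coefficients hold the difference between the groups as well as the spread within them, and the highest of 17296 genes is high by selection. Slc1a3, a glutamate transporter, had 58.4, 128 and 224 CPM in CONT and 510, 504 and 561 CPM in CAC, with the CONT libraries in the same order as for Ces1f but farther apart.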

How the data were processed

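RNA-seq of eWAT from 3 CONT and 3 CAC mice was analysed, 1 library per mouse, grouped by the sample labels. Per the labels and the paper, the authors used HISAT2 2.0.5 for alignment, Ensembl release 94 as the mouse reference and featureCounts 1.5.0-p3 for counting. The deposited counts are whole numbers of reads per gene without normalization. The FPKM values deposited by the authors rest on these counts, gene length and a library total that is 1.21 to 1.25 times the TMM-adjusted library size in every library. No per-sample column was left unused. Coordinates are those of GRCm38.

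Counts were fitted in R 4.3.3 with edgeR 4.0.16 (robust quasi-likelihood, TMM, edgeR's filter on low counts with a minimum of 10, Benjamini-Hochberg adjustment over 17296 genes) with group as the only term. DESeq2 1.42.0 and limma 3.58.1 (voom with sample weights, and log2(FPKM + 1) or log2(FPKM + 0.1) where 3 libraries reached an FPKM of 0.5) were alternatives, beside other normalizations and filters, the replicate block and each library left out. A test on log2 FPKM understates the change of low genes. Scripts were tested on simulated data with log2 changes of 2 and 3 in either direction. These were raised from 1 and 2 after few of the smaller changes were recovered at the estimated dispersions. Changes as small as those of Ces1d and Ces1f were thus not in the final simulation. Correlations used log2 CPM with a prior count of 2. The libraries carry no molecular identifiers, so 95% intervals, and the limit of 3 counts used for a count of 0, cover counting error only. 1 CPM stood for 11.2 to 26.5 reads.

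The members, lists and tests were chosen with earlier results of these data known. Named genes are the 8 members, the 3 genes most like each tested member (1 of them is not reported here), up to 4 genes of each list by smallest p, further markers near 0, and the tested neighbours and carboxylesterases; Krt8, Krt18, Hnf4a, Lipe, Mgll, Dcn and other genes given with single libraries or outside the smallest p were picked after their values were seen, as were the settings without CONT replicate 1 and CAC replicate 3 together and DESeq2 with a library left out. A pair of direct-repeat motifs was dropped from the promoter search before it was run, and the pattern for the serine stretch was loosened, then replaced by alignment for members other than Ces1d, after the first searches missed members. Protein sequences were not analysed here.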

Additional observations from a re-analysis of the deposited data

How the results depend on the processing

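Ces1d and Ces1f kept their direction in all 24 alternatives each, and Ces1b in all 21 that gave it a value, though from -2.54 (DESeq2 without CAC replicate 2) to -0.20 (log2(FPKM + 1), no filter). The adjusted threshold was passed by Ces1d with DESeq2 (1.27) and with voom and sample quality weights (1.17, adjusted p = 0.0392), and by Ces1f with DESeq2 (1.13); with voom Ces1f had 0.90 (adjusted p = 0.0517). With edgeR the 6 fits that left out a library gave 1.14 to 1.45 for Ces1d and 0.89 to 1.39 for Ces1f, with adjusted p of 0.233 to 0.684. Without CONT replicate 1 and CAC replicate 3 together, Ces1d had 1.30 and Ces1f 0.93. DESeq2 with CONT replicates 1, 2 and 3 and CAC replicates 1, 2 and 3 left out in turn gave 1.18, 1.2, 1.47, 1.17, 1.25 and 1.38 for Ces1d, all past the threshold, and for Ces1f passed it without CONT replicate 1 (0.93), CONT replicate 3 (1.42) and CAC replicate 1 (1.10) but not in the other 3 (1.12, 1.18 and 1.13). Those same 6 fits called 2123, 639, 888, 1506, 691 and 615 genes, out of 17794, 17926, 17626, 19054, 18405 and 17434 with an adjusted p. Of the called genes, 2, 1, 2, 3, 1 and 1 were Ces1 genes. All 6 libraries gave 0 calls in edgeR, where 2294 genes had an unadjusted p under 0.05, 917 in DESeq2 (2 of them Ces1 genes), 953 with voom (1 Ces1 gene), and 5 and 6 on FPKM with a pseudocount of 1 and 0.1. DESeq2 called 14 genes in 5 of the other 12 lists. The cause of the difference between the tools was not tested.

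The replicate block gave 1.26 for Ces1d (adjusted p = 0.378) and 1.16 for Ces1f (adjusted p = 0.353), and 1 call over all genes. Deviations of same-numbered libraries correlated at 0.306, -0.151 and -0.218, so the numbers are not taken to pair the libraries, and not every library correlated best with its own number. On the plain library total, without mitochondrial genes, or as FPKM, the log2 ratio of group means was 1.19 to 1.28 for Ces1d and 1.04 to 1.13 for Ces1f. Depth limits the 6 low members, whose values rest on 1 to 70 reads each.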
